A study of Mus musculus with 21 samples.

Results

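The cytosolic and mitochondrial heat shock chaperones are described here through 10 genes, taken by symbol from the 64050 gene symbols of a count table of mouse skin: Hspa1a, Hspa1b, Hspa8, Hsph1, Dnajb1, Bag3, Hsp90aa1, Hspb1, Hspd1 and Hspe1. All 10 passed the filter on low counts that kept 20462 symbols. RNA sequencing was done on 21 skin libraries of a mouse model in which transplanted donor cells cause a scleroderma-like chronic graft-versus-host disease. Recipients were BALB/c mice aged 8 weeks, irradiated with 700 cGy. Syngeneic isotype mice (4 libraries) received BALB/c marrow and an isotype control antibody of the mIgG2a LALA-PG format. Allogeneic isotype mice (4 libraries) received B10.D2 marrow and the same isotype antibody, and anti-IL1RAP mice (4 libraries) received B10.D2 marrow and mCAN10, an antibody to mouse IL1RAP, the co-receptor of the IL-1, IL-33 and IL-36 receptors. Allogeneic water mice (4 libraries) and nintedanib mice (5 libraries) also received B10.D2 marrow; nintedanib inhibits the PDGF, FGF and VEGF receptor kinases. Treatment started on day 21 and the skin was analysed at week 7. Both antibodies were injected intraperitoneally, first at 20 mg/kg and later at 10 mg/kg. The dose of the kinase inhibitor was 50 mg/kg, by mouth in the protocol but by injection in the design text, so its route is uncertain. Every recipient was irradiated, and the syngeneic and allogeneic groups differ in donor strain as well as in disease, which cannot be told apart.

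Heat shock chaperones bind unfolded or partly folded proteins, keep them from aggregating and help them fold. The heat shock factor HSF1 is held inactive by chaperones in resting cells. When unfolded proteins draw the chaperones away, HSF1 forms trimers, binds repeated GAA units in promoters, called heat shock elements, and drives transcription of chaperone genes. Hspa1a and Hspa1b are the strongly inducible HSP70 genes and encode nearly the same protein, whereas Hspa8 encodes HSC70, the HSP70 that cells make at rest. In the epidermis HSPB1 (HSP25 in mice) is abundant in differentiating keratinocytes.

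Total counts per library ranged from 17130264 to 32899212. The syngeneic isotype, allogeneic isotype and anti-IL1RAP libraries (12) were counted with one set of gene names and the water and nintedanib libraries (9) with another, so levels were compared only within these 2 counting runs. The summed CPM (counts scaled to the library total, with TMM factors) of 6 basal keratinocyte markers was between 5075 and 17521 in every library. Muscle content set libraries far apart: 15 skeletal muscle markers summed to 43660 to 67260 CPM in syngeneic, 21.5 to 70043 in allogeneic isotype, 5028 to 29840 in anti-IL1RAP, 7790 to 64342 in water and 5403 to 34941 in nintedanib libraries. Allogeneic isotype replicate 1 was the library at 21.5 CPM. Slow muscle markers (6) ranged from 0.969 to 3251 CPM, highest in allogeneic isotype replicate 3. The labels do not say that each sample is a separate mouse, and p-values measure the spread between samples, which may be technical. In pieces of whole skin, fewer cells of a type and less RNA per cell cannot be told apart.

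Promoter sequences show which of these genes carry perfect pairs or triples of heat shock element units near the start of transcription. RefSeq promoter windows (GRCm38.p6, 250 bases before to 50 after the start) were found for 8 of the 10 genes; Hsp90aa1 and Hspa8 were not matched. They were searched for a pair of units, GAANNTTC or TTCNNGAA, and for 3 units, GAANNTTCNNGAA or TTCNNGAANNTTC. Each pair motif is its own reverse complement and the triple motifs are each other's, so both strands are covered, and every triple holds 2 overlapping pairs. The stretches that hold the matches are printed 5′ to 3′ on the gene's strand with the matched units in capitals, because they are where these promoters are alike and where they differ.
Hspa1a, chr17:34972237-34972276 (−): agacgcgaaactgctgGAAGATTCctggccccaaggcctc
Hspa1b, chr17:34959319-34959358 (−): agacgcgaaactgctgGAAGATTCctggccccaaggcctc
Hsph1, chr5:149636346-149636385 (−): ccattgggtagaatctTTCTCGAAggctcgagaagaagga
Hspb1, chr5:135887786-135887845 (+): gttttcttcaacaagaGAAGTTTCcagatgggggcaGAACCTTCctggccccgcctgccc
Hspe1, chr1:55088043-55088092 (+): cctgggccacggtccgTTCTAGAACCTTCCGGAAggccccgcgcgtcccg
Hspd1, chr1:55088043-55088092 (−): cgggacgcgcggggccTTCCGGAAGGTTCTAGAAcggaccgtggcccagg

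The Hspa1a and Hspa1b windows had the same letters at 296 of 300 positions, and the stretch with the paired unit was identical. Hspe1, the gene of the mitochondrial cochaperonin HSP10, and Hspd1, the gene of its partner HSP60, are neighbours on opposite strands. The 2 Hspd1 entries start 95 and 216 bases from the Hspe1 start, on either side of it. Only for the entry 216 bases away does the run of overlapping units lie between the starts of both genes and within both windows. For the other entry it lies past the start and outside the window. Bag3 and Hsph1 also had matches after the start, which are not printed. Those of Hsph1 held a triple, and neither Dnajb1 entry had a perfect pair. A pair was found in 15.1% of 32851 promoters and a triple in 0.603%. A match describes letters only, and a window without one says nothing about HSF1 at that gene.

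Several members share sequence with other genes, so part of their counts may be split or lost. By windows of 100 bases in the longest coding transcript (GENCODE M21), 49.9% of Hspa1b was identical to Hspa1a and 47.1% of Hspa1a to Hspa1b. For Hspa8, 58.5% matched the copy Gm15459; for Hspb1, 42.7% matched Hsp25-ps1; for Hsp90aa1, 39.6% matched Gm12346; and for Hspd1, 25.8% matched Hspd1-ps3. Dnajb1, Hsph1 and Bag3 shared no window. In the first counting run Gm15459 held 2998 to 5734 counts per library, and in the second it held 0, so Hspa8 may have been counted differently in the 2 runs. Gm20481, whose exons overlap 564 bases of Hspa1a on the opposite strand, held 652 to 1498 counts in the first run and 0 in the second. The kit does not mark strand, so reads of that overlap cannot be told apart, nor can those of the 112 bases that Hspe1 and Hspd1 share.

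Hspb1 had the highest median level per kilobase of exon among the 10 genes, and Hsph1 the lowest, in both counting runs. Per kilobase of exon, the median level in the first run was 576 CPM for Hspb1 (352 to 1025 over 12 libraries) and 158 CPM for Hspa8 (117 to 208). Hspa1b followed at 75.0 CPM per kilobase, Hspd1 at 62.1 and Hspe1 at 53.7. Bag3 (35.6), Dnajb1 (32.5), Hsp90aa1 (27.9) and Hspa1a (26.2) lay close together, and Hsph1, an HSP110 that exchanges the nucleotide of HSP70, stood at 5.57. The ranges of Hspb1 and Hsph1 did not overlap any other gene's. The length used is that of all exons of a gene together. For Hsph1 it is 7266 bases, against 3802 in its longest coding transcript, so the separation of Hsph1 depends on this length. For Hspa8 it is 4301 against 2394 and for Hspb1 1031 against 930, so the gap between these genes depends on it too. In CPM not divided by length, Hspa8 lay above Hspb1 in the second run, at 878 to 1409 against 365 to 657. The lowest Hspa8 library (117) met the highest of Hspa1b (119), and the 4 genes from Bag3 to Hspa1a overlapped one another. In the second run the order began with the same 4 genes, with 530 CPM per kilobase for Hspb1, 265 for Hspa8, 78.3 for Hspa1b and 62.6 for Hspd1, and ended with Hsph1 at 8.93. Hspa1b counts were 1.9 to 3.29 times the Hspa1a counts of the same library, with group means from 2.33 (anti-IL1RAP) to 2.79 (allogeneic isotype). Because the 2 copies share sequence, their reads may be split between them, and this ratio may not be that of the transcripts.

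**Figure D1:**
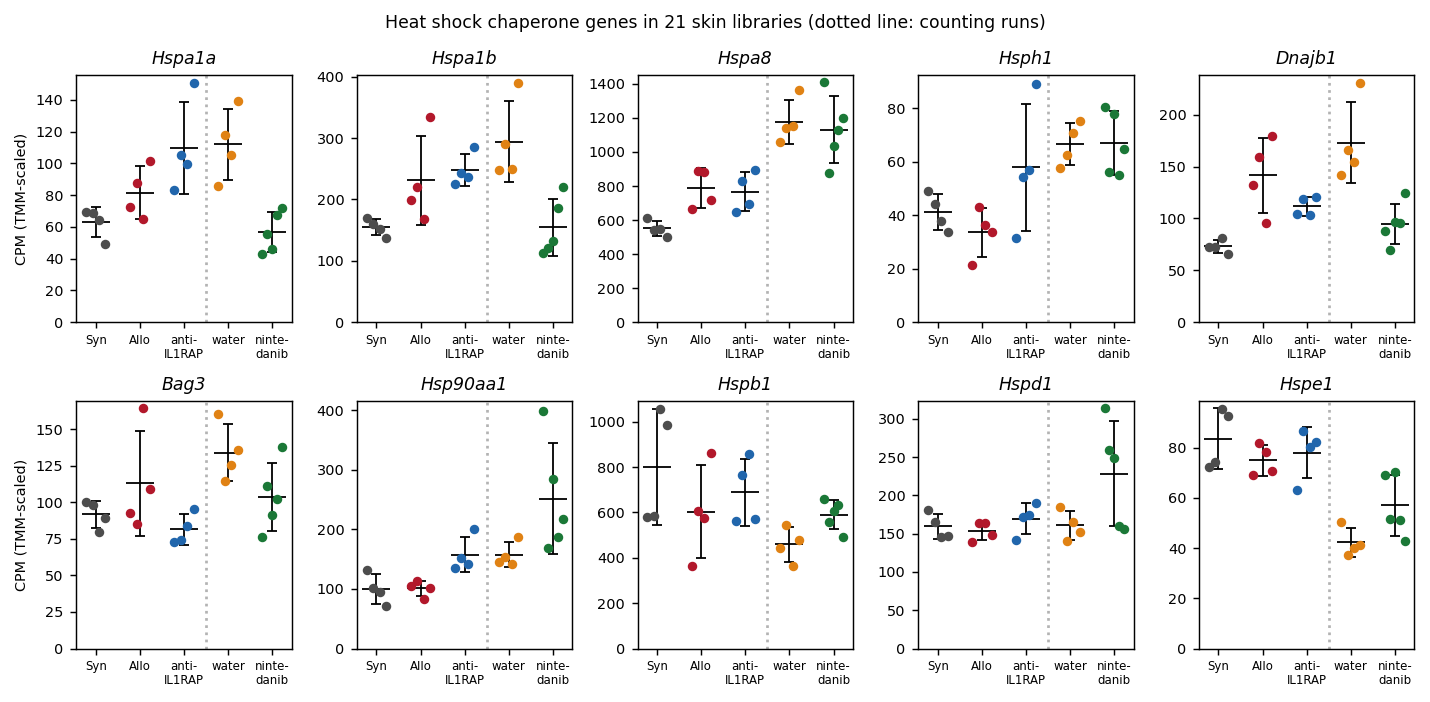
Levels of the 10 genes in CPM (TMM-scaled, linear axes from 0) in each of 21 libraries; points are libraries, bars are the mean ± SD of the group, and the dotted line parts the 2 counting runs. Dnajb1 separates syngeneic from allogeneic isotype skin, and Hspa1a, Hspa1b and Dnajb1 separate water from nintedanib.

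In allogeneic against syngeneic isotype skin, 2 of the 10 genes rose and none fell: Dnajb1, a J protein that hands substrates to HSP70 and stimulates its ATPase, and Hspa8. Over all 20462 genes, 22.6% were called in this comparison (adjusted p under 0.05), 13.8% as higher, so 2 in 10 is near the background. At an unadjusted p under 0.05, 3 of the 10 were higher and none lower (20.1% of all genes were higher), and DESeq2 called 2 higher and none lower. The median log2 fold change was 0.15 for the 10 genes and 0.00 for all genes. Ranges did not overlap for the same 2 genes, against 29.2% of all genes, 16.8% as higher.

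Dnajb1 stood at 72.7, 72.6, 81.3 and 65.5 CPM in the 4 syngeneic libraries and at 132, 159, 95.9 and 179 CPM in the allogeneic ones. Every allogeneic library lay above every syngeneic one, and replicate 3 was the lowest of the 4. The log2 fold change was 0.96 ± 0.19 (SE, adjusted p = 0.0017 in edgeR's quasi-likelihood test), a 1.94-fold difference between means of 142 ± 36.1 and 73.0 ± 6.47 CPM (SD, n = 4 each). It was called with each library left out in turn, at 0.82 to 1.10, and with skeletal muscle markers as a covariate (0.90, adjusted p = 0.00711).

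Hspa8 stood at 611, 543, 549 and 501 CPM in syngeneic and at 664, 890.0, 882 and 715 CPM in allogeneic skin. The 2 groups did not overlap, and allogeneic replicates 2 and 3 were the highest. The log2 fold change was 0.52 ± 0.16 (adjusted p = 0.0300, 1.43-fold). This call was lost without allogeneic replicate 2 (0.41, adjusted p = 0.137) or 3 (0.46, 0.0671) and without syngeneic replicate 2 (0.51, 0.0645), 3 (0.51, 0.0627) or 4 (0.47, 0.0840). Summed with its copy Gm15459, Hspa8 gave 0.43 ± 0.17 (adjusted p = 0.0710). Over 11 other settings, that sum among them, the call was lost in 6, with adjusted p up to 0.140.

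The inducible pair did not pass the test. Hspa1b stood at 169, 160.2, 152 and 138 CPM in syngeneic and at 199.6, 221, 169 and 335 CPM in allogeneic skin. Allogeneic replicate 4 was far above the rest and replicate 3 lay within the syngeneic range (log2 fold change 0.58 ± 0.22, adjusted p = 0.0707). Without that replicate 3 the gene was called, with an adjusted p of 0.0351. Hspa1a stood at 69.7, 69.0, 64.6 and 49.2 CPM against 72.4, 87.8, 64.8 and 102 CPM, with ranges that overlapped (0.37 ± 0.21, adjusted p = 0.217). Their summed counts gave 0.52 ± 0.22 (adjusted p = 0.0928).

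The other 6 genes were not called. Hspb1, the small HSP that binds unfolding proteins without ATP, ranged from 578 to 1057 CPM in syngeneic and from 363 to 864 CPM in allogeneic skin (−0.41 ± 0.25, adjusted p = 0.254). Bag3, the cochaperone that links HSP70 to small HSPs and autophagy, gave 0.30 ± 0.19, with 165 CPM in allogeneic replicate 3 and 85.1 to 109 CPM in the rest of that group. Hsp90aa1, the stress-inducible cytosolic HSP90, was at 100.2 ± 25.0 and 101 ± 12.7 CPM (0.01 ± 0.23). Hsph1 gave −0.29 ± 0.25, Hspe1 −0.16 ± 0.16 and Hspd1 −0.06 ± 0.18.

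Markers of other processes moved in the same libraries. Immediate early genes, which respond to activation and also to tissue handling, were called higher in 8 of 16, with summed levels of 1906 to 3096 CPM in allogeneic and 1083 to 1550 CPM in syngeneic skin; none was at 0. With their level as a covariate Dnajb1 gave 0.68 with an adjusted p of 0.150 and Hspa8 an adjusted p of 0.140, so neither was called. The summed level did not overlap between the 2 groups, so the covariate cannot be well separated from the group. In that fit calls over all genes fell from 4621 to 879, and the part of immediate early genes in the result was not tested. Activated keratinocyte markers were called higher in 9 of 10, from a summed 846 to 1359 CPM to 4308 to 9447 CPM. Leukocyte markers were called higher in 7 of 9 (317 to 682 CPM against 741 to 2635 CPM). In each of these 2 lists 1 marker was at 0 in some syngeneic library, and the part of either list in the result was not tested.

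**Figure D2:**
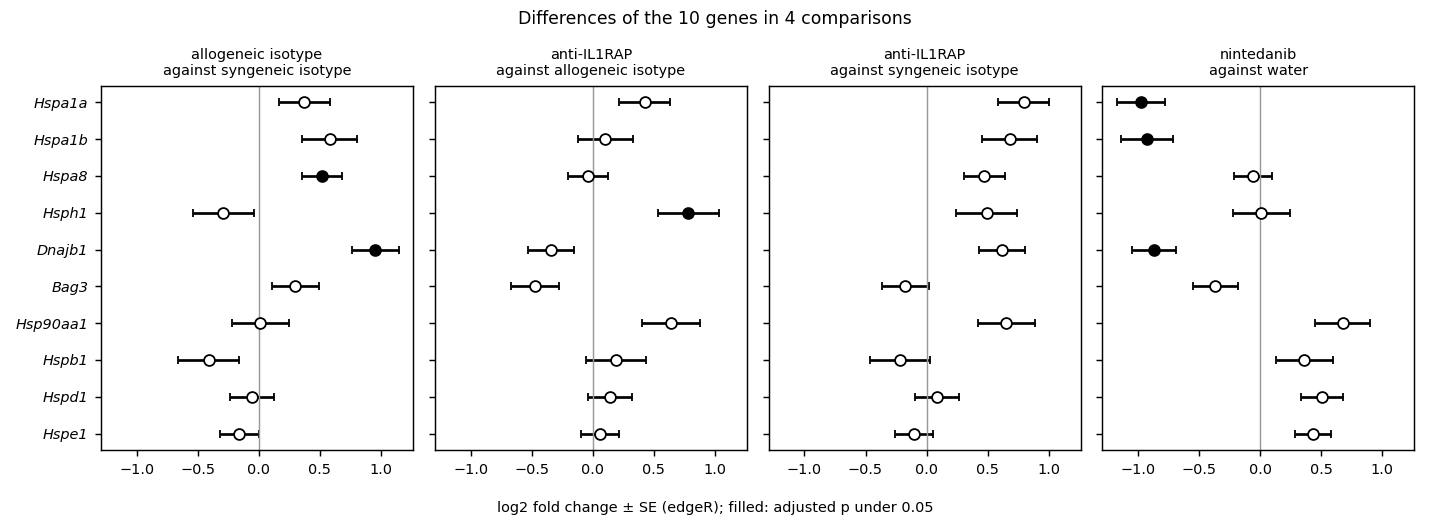
Log2 fold changes ± SE of the 10 genes in 4 comparisons (edgeR); filled points have an adjusted p under 0.05. Filled points are Dnajb1 (0.96) and Hspa8 (0.52) in the first panel, Hsph1 (0.78) in the second, none in the third, and Hspa1a (−0.98), Hspa1b (−0.93) and Dnajb1 (−0.87) in the fourth.

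Under anti-IL1RAP, against allogeneic isotype skin, 1 of the 10 genes rose and none fell. Over all genes 10.8% were called, 5.58% as higher. At an unadjusted p under 0.05, 2 of the 10 were higher and 1, Bag3, was lower (12.9% and 11.6% of all genes), and DESeq2 called 1 higher, also Hsph1, and none lower. Hsph1 stood at 21.2, 43.2, 36.4 and 33.8 CPM in isotype and at 31.5, 54.1, 57.0 and 89.1 CPM in anti-IL1RAP libraries. The groups overlapped, with the antibody's replicate 1 inside the isotype range and replicate 4 well above it. The log2 fold change was 0.78 ± 0.25 (adjusted p = 0.0499, 1.72-fold). This adjusted p is at the threshold, and the call was lost in 9 of 10 other settings, with adjusted p from 0.0588 to 0.165, DESeq2 being the exception (0.0329). It was also lost without any one of 6 of the 8 libraries: isotype replicate 1 (0.62, adjusted p = 0.129), 3 (0.82, 0.0788) or 4 (0.79, 0.108), or antibody replicate 2 (0.81, 0.0914), 3 (0.78, 0.114) or 4 (0.48, 0.278).

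Hsp90aa1 was the gene whose ranges did not overlap, against 23.1% of all genes, 12.2% as higher. It stood at 106, 114, 83.5 and 101 CPM in isotype and at 135, 151, 143 and 201 CPM under the antibody, a 1.56-fold difference. The log2 fold change of 0.64 ± 0.23 had an adjusted p of 0.0881 and was not called. It was called when fitted on these 2 groups alone (adjusted p = 0.0256) or on the counting run alone (0.0425), settings in which Hsph1 was not called (0.133 and 0.0846).

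Neither gene that rose in allogeneic skin was called under the antibody. Under the antibody Dnajb1 stood at 104, 118, 104 and 121 CPM, above every syngeneic library and inside the allogeneic isotype range (−0.34 ± 0.19 against isotype, adjusted p = 0.289). Hspa8 stood at 647, 829, 693 and 895 CPM (−0.04 ± 0.16, adjusted p = 0.948). These values share the isotype libraries with the comparison above, so a high isotype library raises one difference and lowers the other. Bag3 gave −0.47 ± 0.19 (adjusted p = 0.135), with 72.7 to 95.2 CPM under the antibody. For Hspa1a the log2 fold change was 0.43 ± 0.21 (83.1, 105, 99.7 and 151 CPM under the antibody), and for Hspa1b 0.10 ± 0.22 (225, 244, 237 and 286 CPM). Hspb1 (0.19 ± 0.25), Hspd1 (0.14 ± 0.18) and Hspe1 (0.06 ± 0.16) differed by less than their error. Activated keratinocyte markers fell in 9 of 10 (1170 to 1667 CPM under the antibody), and immediate early genes were at a summed 1321 to 2215 CPM, with 1 of 16, Junb, called lower.

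Against syngeneic skin, anti-IL1RAP skin had none of the 10 genes called by edgeR's quasi-likelihood test, while 0.811% of all genes were. Of the 10, 5 had an unadjusted p under 0.05, all higher, against 9.52% of all genes. The same 5 genes, Hspa1a, Hspa1b, Dnajb1, Hsp90aa1 and Hspa8, did not overlap between the groups, against 18.8% of all genes, 10.8% as higher. Hspa1a had the largest difference, 0.80 ± 0.21 (adjusted p = 0.0868), from 49.2 to 69.7 CPM in syngeneic libraries and from 83.1 to 151 CPM under the antibody. Hspa1b gave 0.68 ± 0.22, Hsp90aa1 0.65 ± 0.23, Dnajb1 0.62 ± 0.19 and Hspa8 0.47 ± 0.16, with adjusted p from 0.151 to 0.224. DESeq2 called 1 of the 10, Hspa1a, with an adjusted p of 0.0262. Fitted on the 2 groups alone, Hspa1a (adjusted p = 0.0373), Hspa1b (0.0153) and Dnajb1 (0.0110) were called. The median was 0.48 for the 10 genes and 0.03 for all genes. In this comparison 0 of 10 activated keratinocyte markers and 0 of 16 immediate early genes were called, with 6 of the 16 higher at an unadjusted p under 0.05. Leukocyte markers had 1 of 9 called higher and 8 of 9 higher at an unadjusted p under 0.05, with summed levels of 691 to 1548 CPM under the antibody and 317 to 682 CPM in syngeneic skin, which did not overlap. Skeletal muscle markers, with 0 of 15 called, did not overlap either, at a summed 5028 to 29840 CPM under the antibody and 43660 to 67260 CPM in syngeneic skin. The part of these lists in the result was not tested.

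Under nintedanib, against water in the second counting run, Hspa1a, Hspa1b and Dnajb1 fell by 1.97-, 1.91- and 1.83-fold and no gene of the 10 rose. Counts at an unadjusted p under 0.05 were 3 higher and 3 lower (15.3% and 10.1% of all genes), and DESeq2 called the same number lower and 1, Hsp90aa1, higher. Over all genes 9.31% were called, 3.76% as lower. Ranges did not overlap for these 3 genes, against 7.94% of all genes and 3.2% as lower. Hspa1a stood at 86.0, 118, 105 and 139 CPM in water and at 43.0, 55.7, 46.2, 67.4 and 71.8 CPM in nintedanib libraries. Every nintedanib library lay below every water library, and the log2 fold change was −0.98 ± 0.20 (adjusted p = 0.00622, 1.97-fold lower). Hspa1b stood at 247, 290.3, 250 and 389 CPM in water and at 113, 122, 132, 186 and 219.6 CPM under nintedanib. Again no library overlapped, with water replicate 4 the highest of all (−0.93 ± 0.21, adjusted p = 0.0118, 1.91-fold lower). The summed pair gave −0.94 ± 0.21 (adjusted p = 0.0096), close to the value of each copy alone. Dnajb1, their J protein partner, stood at 142, 166, 155 and 230.5 CPM in water and at 88.2, 69.7, 96.1, 95.5 and 124 CPM under nintedanib. Its highest nintedanib library was below its lowest water library (−0.87 ± 0.18, adjusted p = 0.0069, 1.83-fold lower).

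None of these 3 calls was kept in a fit of the 9 libraries of this run alone. The calls above use a spread estimated over all 21 libraries, 12 of them from the other counting run. The fit of the run alone estimates the spread from its own 9, and also changes the genes tested and the scaling. Calls over all genes fell from 1906 to 94 in that fit. There the log2 fold changes were −0.98, −0.93 and −0.87 and the adjusted p 0.0568 for Hspa1a, 0.102 for Hspa1b and 0.0798 for Dnajb1. The labels note 2 sequencing lanes for water replicates 1 and 2 and nintedanib replicates 2, 3 and 5. With that note as a covariate in this run the differences were −0.96 (adjusted p = 0.110), −0.92 (0.163) and −0.85 (0.139). Immediate early genes were at a summed 1809 to 2540 CPM in water and 1141 to 1604 CPM under nintedanib, with 3 of 16 called lower (Junb, Dusp1 and Nr4a1). With their level as a covariate the differences were −1.02 (adjusted p = 0.0846) for Hspa1a, −0.74 (0.221) for Hspa1b and −0.63 (0.208) for Dnajb1. The summed level did not overlap between water and nintedanib, so this covariate cannot be well separated from the group either. Calls over all genes fell from 1906 to 186 with it. Activated keratinocyte markers fell in 5 of 10, from 2313 to 11377 CPM in water to 872 to 2840 CPM. Differentiated keratinocyte markers fell in 3 of 11 (36982 to 77025 CPM in water, 4761 to 38048 CPM under nintedanib), with 7 lower at an unadjusted p under 0.05. Sebaceous gland markers rose in 5 of 8, from 328 to 376 CPM in water to 441 to 1077 CPM, without overlap. The part of these lists in the result was not tested. Without water replicate 4 Hspa1b gave −0.77 (adjusted p = 0.0568).

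The mitochondrial chaperonin and Hsp90aa1 lay higher under nintedanib, without passing the test. Hsp90aa1 stood at 146, 154, 142 and 188 CPM in water and at 399, 168, 284, 188 and 218 CPM under nintedanib (0.67 ± 0.22, adjusted p = 0.0630). Hspd1 stood at 185, 140.4, 165 and 152 CPM against 315, 259.8, 249, 159.8 and 157 CPM (0.50 ± 0.18, adjusted p = 0.0745). Hspe1 stood at 50.3, 37.1, 40.0 and 41.4 CPM against 69.3, 51.4, 70.1, 51.0 and 43.0 CPM (0.43 ± 0.15, adjusted p = 0.0737). Nintedanib replicates 1 and 3 were the 2 highest libraries for Hsp90aa1 and for Hspe1. The same 2 libraries carried markers of growing hair, with a summed 59824 and 21376 CPM over 15 hair follicle markers, against 39.6 to 59.5 CPM in the other nintedanib libraries and 39.3 to 399 CPM in water. Of the 15 hair markers, 10 were called higher, and up to 3 were at 0 in a library.

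Without those 2 libraries the differences were 0.24 ± 0.19 for Hsp90aa1 (adjusted p = 0.553), 0.22 ± 0.16 for Hspd1 (0.510) and 0.16 ± 0.13 for Hspe1 (0.571). These smaller differences follow from the choice, which was made after seeing the data and takes out libraries among the highest for these genes. In the same fit Hspa1a gave −0.83 ± 0.22 (adjusted p = 0.0356), Hspa1b −0.79 ± 0.24 (0.0608, not called) and Dnajb1 −0.89 ± 0.22 (0.0283). A planned fit with hair follicle markers as a covariate called 0 of the 10 higher and kept the 3 lower calls. The part of growing hair in these results was not tested. With all libraries kept, the remaining 4 genes were not called: Hspb1 at 0.36 ± 0.24, Bag3 at −0.37 ± 0.18, Hspa8 at −0.06 ± 0.16 and Hsph1 at 0.01 ± 0.23. Hspa8 ranged from 1058 to 1362 CPM in water and from 878 to 1409 CPM under nintedanib. Hspb1 ranged from 365 to 547 CPM in water and from 494 to 657 CPM under nintedanib. Bag3 ranged from 115 to 160.0 CPM in water and from 76.2 to 138 CPM under nintedanib. Of the 10 genes, the 3 that fell are thus the HSP70 pair and its J protein, and Hsph1 and Hspa8 differed by less than their error.

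**Figure D3:**
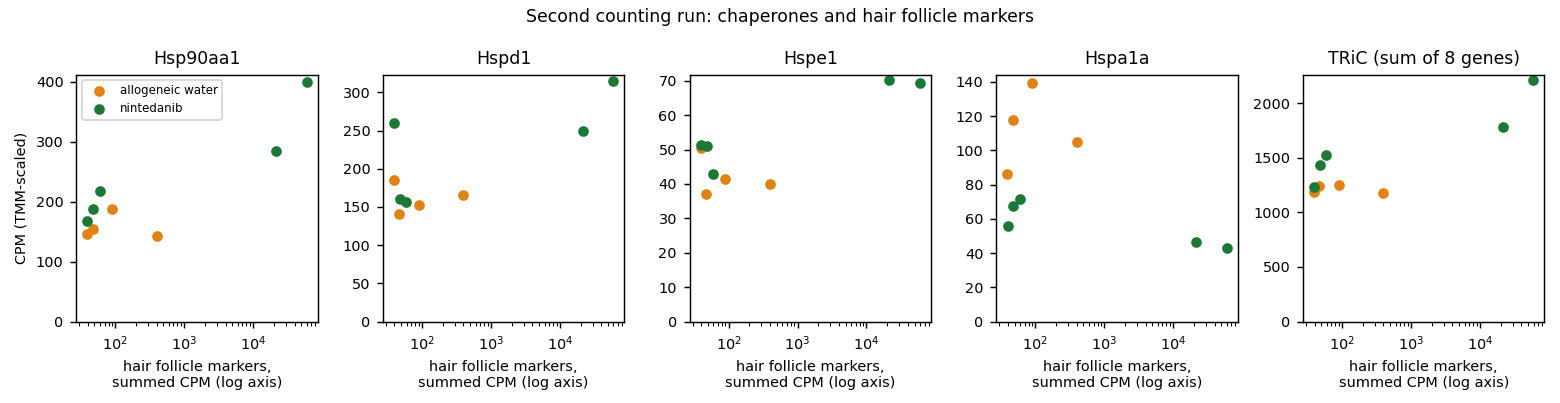
Levels (CPM, TMM-scaled) of Hsp90aa1, Hspd1, Hspe1, Hspa1a and the sum of the 8 TRiC genes against summed hair follicle markers (log axis) in the 4 water and 5 nintedanib libraries. The 2 libraries at the right, nintedanib replicates 1 (59824 CPM) and 3 (21376 CPM), are the highest for Hsp90aa1, Hspe1 and TRiC and the lowest for Hspa1a.

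The other chaperone families were read from 8 lists. The 4 tested regulators of the response, among them Hsf1, had none called by edgeR or DESeq2 in the 4 comparisons, and between 0 and 2 had an unadjusted p under 0.05 in each. In allogeneic against syngeneic isotype skin, chaperones of the endoplasmic reticulum and the unfolded protein response had 8 of 18 called higher and none lower, against 13.8% of all genes called higher. Among them were Calr, a lectin chaperone of glycoproteins, at 623 ± 58.3 against 395 ± 41.1 CPM (0.66 ± 0.16, adjusted p = 0.0062), and the transcription factor Atf4 at 239 ± 33.1 against 147 ± 7.52 CPM (0.70 ± 0.19, adjusted p = 0.0121). Dnajb11, the J protein of the endoplasmic reticulum, gave 0.42 ± 0.11 (adjusted p = 0.00887). No gene of 8 for the cytosolic chaperonin TRiC or of 6 for mitochondrial proteostasis was called by either tool, and 1 of each list was higher at an unadjusted p under 0.05.

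Of the 14 other J proteins, 3 rose (Dnajc5, 0.46 ± 0.09; Dnajc2, 0.59 ± 0.14; Dnajb6, 0.41 ± 0.11) and Dnajb2 fell (−0.41 ± 0.15). Of 10 HSP90 genes and cofactors, Fkbp5, an immunophilin induced by glucocorticoids, rose from 28.2 ± 15.5 to 175 ± 79.0 CPM (2.63 ± 0.46, adjusted p = 0.000605). Its relative Fkbp4 fell from 162 ± 4.02 to 108 ± 22.7 CPM (−0.59 ± 0.17, adjusted p = 0.0177), and the cyclophilin Ppid fell as well (−0.54 ± 0.16). Of 7 other small HSPs, Cryaa, best known from the lens, rose from 0.199 ± 0.150 to 3.1 ± 2.36 CPM (3.93 ± 0.89). Of 17 other HSP70 genes and cofactors, Hspa12b, which endothelial cells express, fell (−0.92 ± 0.30).

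The comparison of anti-IL1RAP with isotype uses the same isotype libraries. In it Dnaja1, a J protein that works with HSPA8, rose from 80.9 ± 24.5 to 152 ± 27.7 CPM (0.91 ± 0.23, adjusted p = 0.016). Fkbp4 rose to 159.5 ± 21.8 CPM (0.56 ± 0.17, adjusted p = 0.0393), while Dnajc5 (−0.35 ± 0.09), Dnajc2 (−0.49 ± 0.14), Cryaa (−2.72 ± 0.82) and Atf4 (−0.65 ± 0.19) fell. The mitochondrial proteases Afg3l2 (−0.52 ± 0.14) and Clpx (−0.48 ± 0.14) fell, 2 of 6 in their list. Against syngeneic skin, 2 of 18 genes of the endoplasmic reticulum list rose, Creld2 (0.76 ± 0.16) and Hspa5, its HSP70, from 221 ± 32.9 to 363 ± 48.8 CPM (0.72 ± 0.16, adjusted p = 0.0448). At an unadjusted p under 0.05, 13 of the 18 were higher. In the other 7 lists edgeR called none and DESeq2 called 1 HSP90 gene or cofactor.

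In nintedanib against water, 2 of the 8 TRiC subunits rose, Cct4 from 142 ± 10.4 to 203 ± 30.5 CPM (0.51 ± 0.11, adjusted p = 0.00703) and Cct5 from 155 ± 6.36 to 219.9 ± 50.1 CPM (0.50 ± 0.13, adjusted p = 0.0193). DESeq2 called 5 of the 8 higher, and all 8 were higher at an unadjusted p under 0.05. The list's median was 0.46, against 0.00 for all genes, and its summed level was 1180 to 1247 CPM in water and 1230 to 2211 CPM under nintedanib, highest in the 2 libraries with hair markers. St13, a cofactor of HSP70 (0.48 ± 0.15), Ppid (0.52 ± 0.15) and the protease Yme1l1 (0.48 ± 0.12) rose. The ranges of St13, Ppid, Yme1l1 and Cct5 overlapped between the groups, and those of Cct4 did not. These edgeR calls come from the fit of all 21 libraries, where 1906 genes were called, against 94 in the run alone. Stub1, the ubiquitin ligase CHIP that acts on HSP70 clients (−0.42 ± 0.12), Dnajc5 (−0.38 ± 0.08) and Cryaa (−2.74 ± 0.77) fell. Cryaa was low in both groups, at 3.31 ± 3.13 CPM in water and 0.489 ± 0.200 CPM under nintedanib, and its ranges overlapped. Of the 18 genes of the endoplasmic reticulum list edgeR called none and DESeq2 called 2 higher, with 3 higher and 1 lower at an unadjusted p under 0.05.

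Within groups, Hspa1a, Hspa1b and Dnajb1 also varied together. Correlations of deviations from group means (log2 CPM) are given as descriptions, over libraries that share depth and tissue makeup. In the first run (12 libraries) Pearson's r was 0.82 for Hspa1a with Hspa1b, 0.84 for Hspa1b with Dnajb1 and 0.73 for Hspa1a with Dnajb1. In the second run (9 libraries) the same values were 0.90, 0.84 and 0.65. The first pair shares reads, but Dnajb1 shares no sequence window with either.

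A further group in the first run was Hsph1, Hspa8 and Hspd1, with r of 0.92 for Hsph1 with Hspd1, 0.85 for Hsph1 with Hspa8 and 0.84 for Hspa8 with Hspd1. In the second run Hsph1 went with Hsp90aa1 (0.87), and Hspd1 with Hspe1 (0.79), its neighbour; in the first run that pair had r = 0.19. Hspd1 and the inducible pair went in opposite directions in the second run, with r of −0.86 for Hspa1a and −0.88 for Hspa1b. That run holds the 2 libraries with hair markers, in which Hspa1a was lowest and Hspd1 was 315 and 249 CPM. Nintedanib replicate 2, which is not one of them, had Hspd1 at 259.8 CPM and Hspa1b at 122 CPM. The part of the libraries with hair markers in these correlations was not tested. Bag3 stood apart from Dnajb1 in the first run (−0.60).

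**Figure D4:**
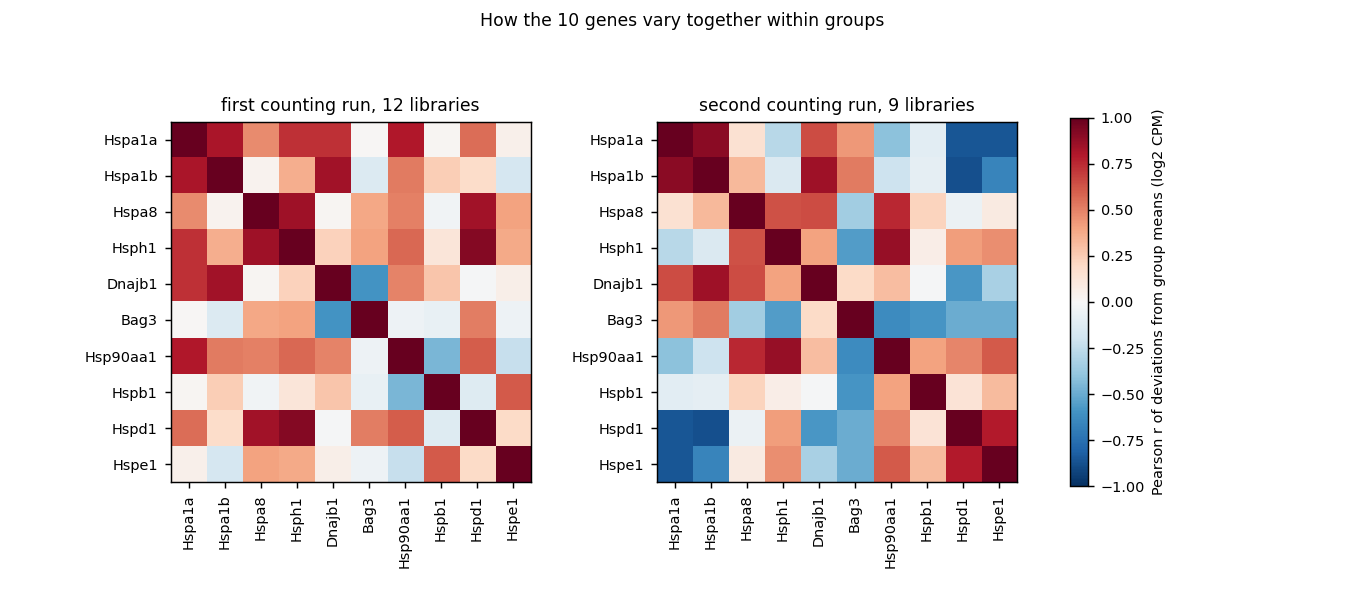
Pearson's r between the 10 genes, of deviations of log2 CPM from group means, over 12 libraries of the first and 9 of the second counting run (red positive, blue negative). Hspa1a, Hspa1b and Dnajb1 are positive with one another in both runs (0.65 to 0.90), whereas Hspd1 with Hspa1b is 0.18 in the first and −0.88 in the second.

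Genes whose deviations were most like the mean of the 10 differed between runs. In the first run, of 15694 genes compared, they were Card10 (r = 0.94), Msc (0.94), Elfn2 (0.93), Chordc1 (0.91), Gcgr (0.91) and Zfp638 (0.90). Chordc1 encodes an HSP90 cochaperone. Over the second run the same 6 genes had r of −0.23, −0.51, 0.29, 0.36, −0.78 and −0.05. In the second run the most alike were Blzf1 (0.99), Zfp710 (0.97), Pxdc1 (0.97), Pdik1l (0.97), Ufsp2 (0.96) and Uck2 (0.96), with r of 0.21, 0.08, 0.66, −0.46, 0.41 and −0.48 in the first. With so few libraries the highest of many correlations is high by selection, and Pxdc1 (0.97 and 0.66) was the only one of the 12 above 0.41 in the run that did not choose it.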

How the data were processed

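Skin pieces 3 mm in diameter gave poly-A RNA (1 µg per library), sequenced without strand marking. The deposited values are counts per gene symbol. The authors used featureCounts, STAR, Trimmomatic and FastQC with the GRCm39 build, per the submitters' processing notes. Their versions, settings and rule for multi-mapping reads were not given in the sources used here, and such reads bear on the members with near-identical copies. Sequences and exon lengths come from GRCm38 and were matched by symbol.

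From the counts, edgeR 4.0.16 in R 4.3.3 kept 20462 symbols (filterByExpr, minimum count 10), computed TMM factors and fitted all 21 libraries with a mean per group (glmQLFit, glmQLFTest). p-values were adjusted over all genes by Benjamini-Hochberg and called under 0.05. Means are CPM ± SD, and correlations use log2 CPM with a prior count of 2. In a test on simulated data, 80 of 100 genes set to differ 4-fold and 47 of 100 set to differ 2-fold were recovered for allogeneic against syngeneic isotype (19324 genes), 87 and 39 for anti-IL1RAP against isotype (19303 genes), 80 and 44 for anti-IL1RAP against syngeneic (19183 genes), and 85 and 51 for nintedanib against water (17032 genes). Only these genes were set to differ, and they were drawn from genes over a wide range of levels. The shares recovered therefore do not give the power for the 10 members. DESeq2 1.42.0 was an alternative, beside others in scaling, filtering, samples and covariates. Leaving out both libraries with hair markers, immediate early genes as a covariate and the sums with Gm15459 or Gm20481 were chosen after seeing the data. Figures were drawn with matplotlib 3.10.9.

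The 10 members and all lists were chosen with earlier results of these data known. All 10 members are named; of the 8 pathway lists, up to 3 called genes per list and direction with the lowest p are named.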

Additional observations from a re-analysis of the deposited data

How the results depend on the processing

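Over 40 member results and 774 alternative values, 682 kept direction and side of the threshold, 41 lost a call, 19 gained one and 32 changed direction, none of these called. Allogeneic against syngeneic isotype: 4621 genes were called, 879 with immediate early genes as a covariate and 3580 to 4953 with 1 library left out. Members higher numbered 2, but 3 with the run alone (Hspa1b added, adjusted p = 0.0426), 1 with no filter or the 2 groups alone, 0 with the immediate early covariate and 1 to 2 with a library left out. With a replicate block Hspa8 had an adjusted p of 0.0558 and Hspa1b of 0.0302. Over 11 other settings for each gene, Hspa8 lost its call in 6 and Hspa1b gained one in 3. Where 2 members were called, they were thus not always the same genes. Anti-IL1RAP against isotype: 2204 genes were called, 3664 with the run alone and 1284 to 2168 with a library left out. The 1 member higher became 0 with RLE factors, no filter, only symbols of both runs, either replicate block, or muscle or immediate early covariates, and 0 to 1 with a library left out. With the 2 groups or the run alone the count stayed 1, but the gene was Hsp90aa1 and not Hsph1; with the muscle covariate 1 was lower (Bag3, −0.57, adjusted p = 0.0408). Anti-IL1RAP against syngeneic: 166 genes were called, 2131 with the 2 groups alone, 505 with the run alone, 106 with symbols of both runs, 98 and 60 with a replicate block by title or description number, 108 with the muscle and 23 with the immediate early covariate, 682 with DESeq2 and 31 to 152 with a library left out. Members higher were 0, but 3 with the 2 groups alone and 1 with DESeq2. Nintedanib against water: 1906 genes were called, 1190 with no filter, 94 with the 2 groups (the run) alone, 29 with the lanes as a covariate, 186 with the immediate early covariate, 1225 without the libraries with hair, 3039 with DESeq2 and 782 to 2794 with a library left out. Members lower were 3, but 0 with the run alone, lanes or immediate early covariate, 2 without the hair libraries and 2 to 3 with a library left out. Members higher were 0, but 2 with a replicate block (Hspe1, 0.51, adjusted p = 0.0439; Hspd1, 0.60, 0.0361), 1 with DESeq2 (Hsp90aa1, 0.0388) and 0 to 2 with a library left out. The cause was not tested in any of these. Same-numbered samples did not deviate together (r from −0.23 to 0.35 by title number and from −0.35 to 0.27 by description number over the 4 comparisons), so the numbers are not taken as pairs.

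Of the 32 changes of direction, 1 was of a value as far from 0 as −0.29 (Hsph1 in allogeneic against syngeneic isotype). In allogeneic against syngeneic isotype, Hsp90aa1 gave −0.012 with RLE or DESeq2, −0.014 with the run alone or both-run symbols, −0.037 with no filter, −0.026 with 2 groups, −0.14 with the muscle covariate and −0.12 to 0.17 with a library left out. The immediate early covariate gave 0.17 for Hsph1 and for Hspd1, and with a library left out Hspd1 gave −0.13 to 0.0051. In anti-IL1RAP against isotype, leaving out a library gave −0.021 to 0.34 for Hspa1b, −0.14 to 0.02 for Hspa8 and −0.0012 to 0.13 for Hspe1, and against syngeneic −0.026 to 0.15 for Hspd1. In nintedanib against water, Hsph1 gave −0.0099 with no filter, −0.0061 with both-run symbols, −0.062 with the description block, −0.066 with the hair and −0.43 with the immediate early covariate, −0.22 without the hair libraries and −0.10 to 0.068 with a library left out, and Hspa8 −0.19 to 0.020. Near-identical copies and the small number of libraries limit all of these.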
